A study of Mus musculus with 12 samples.

Results

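Transcripts best known from neurons were followed through 3 glial fractions sorted from the neonatal mouse spinal cord. The set held 32 of the 53465 genes counted, and its members were taken by name: genes for transmitters and neuronal transcription factors, synaptic vesicle proteins, neuronal RNA-binding proteins, cytoskeletal and growth proteins, and signalling and trafficking proteins. From general knowledge, 22 were classed as neuron-only, and 10 as genes that glia, above all the oligodendrocyte lineage, are also known to use (Gad1, Elavl3, Tubb3, Stmn3, Map2, Dcx, Gap43, Camk2b, Nsg1 and Uchl1). Earlier results of these data were known when the classes were made.

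All mice carried both reporters, Aldh1L1-GFP and Olig2-tdTomato, on a C57BL/6 background, and were at postnatal day 7. Brachial and thoracic cord was dissociated with papain, and the cells were sorted into an eGFP/tdTomato fraction carrying both colours, an eGFP fraction and a tdTomato fraction. Each fraction had 4 libraries, labelled biological replicates 1, 2, 3 and 5. Aldh1l1 is an astrocyte enzyme gene and Olig2 a transcription factor gene of the oligodendrocyte lineage, so each colour reports a promoter, not a cell type, and no fraction was selected against neurons by a neuronal label. The labels do not say whether a library came from 1 animal or from a pool, and p-values below measure the spread between these libraries.

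Neurons and glia of the spinal cord arise from the same progenitors. Outside neurons, many neuronal genes are held down by the repressor REST, which binds a DNA element called RE1. Some genes first described in neurons are also used by glia: young oligodendrocytes rebuild their cytoskeleton as they extend processes, and astrocytes carry vesicle and transmitter-related proteins. In bulk RNA, fewer cells of a kind and less of the transcript per cell cannot be told apart.

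The short stretches below show the members whose start region carries the left part of RE1, or both parts at its spacing, since REST is the best known regulator of this gene class. They are RefSeq sequences on GRCm38.p6, and 26 of the 32 members had in all 44 windows of 250 bases before to 50 bases after a start. Capitals in the first 2 mark the left part of RE1, TTCAGCACC. In the third they mark AGCACC and GGAC at the spacing of RE1, with 2 bases of any kind between them, and then the last letters of the right part GGACAGC, which overlaps this spaced pattern.
Syn1 (chrX:20921125-20921154, minus strand): cggaTTCAGCACCgcggtcagagccttcgc
Nsg2 (chr11:32000495-32000524, plus strand): ttttTTCAGCACCacgctctggctgaggag
Gad2 (chr2:22622157-22622186, plus strand): ctgtggtAGCACCCTGGACAGCgcgttccg

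Both strands were searched in 32851 windows of 300 bases. TTCAGCACC was in 0.371% of all windows and, among members, in those of Nsg2 and Syn1. The spaced pattern was in 0.128% of windows and in that of Gad2 alone among matched members. GGACAGC was in 6.56% of windows and in those of Gad2, Map2 and Tubb3. These are letter matches, with no binding measured. The member that differed most between fractions, Elavl3, had none of the 3 patterns in its window. The bases before its start, on the minus strand, are shown with the E-box CAGCTG in capitals, a word that 16.3% of windows hold.
Elavl3 (chr9:22052024-22052273, minus strand): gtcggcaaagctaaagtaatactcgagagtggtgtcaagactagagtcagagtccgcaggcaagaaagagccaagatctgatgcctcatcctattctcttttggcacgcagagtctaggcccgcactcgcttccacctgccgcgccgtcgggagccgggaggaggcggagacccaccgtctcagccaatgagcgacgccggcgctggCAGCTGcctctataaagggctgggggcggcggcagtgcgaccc
A SOX word, ACAAAG, was in 18.7% of all windows and in 8 of the 44 member windows, among them those of Dcx, Nsg2 and Rbfox3. The E-box was in 11 of the 44, from 8 members.

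Gene counts per library were 23915784 to 30299452 for eGFP/tdTomato, 12564767 to 27898597 for eGFP and 25460920 to 36505583 for tdTomato cells. Aldh1l1 averaged 722 ± 170 CPM (counts scaled for library size) in eGFP/tdTomato, 406 ± 207 in eGFP and 3.69 ± 1.83 in tdTomato cells (SD, n = 4 each). Olig2 averaged 74.4 ± 29.95 CPM, 5.76 ± 3.06 CPM and 258 ± 80.1 CPM in the same order. The eGFP fraction also held ependymal markers, 311 to 642 CPM summed over 14 genes, against 36.2 to 48.4 in eGFP/tdTomato and 7.25 to 16.2 in tdTomato libraries. Microglial markers summed to 85.5 to 109 CPM in eGFP/tdTomato, 138 to 1181 in eGFP and 35.8 to 66.3 in tdTomato libraries. Mural cell and fibroblast markers summed to 370 to 584 CPM, 797 to 2102 CPM and 54.1 to 90.1 CPM in the same order, and endothelial markers to 63.1 to 81.4 CPM, 119 to 214 CPM and 67.6 to 113 CPM. Library eGFP replicate 1 stood apart: 57.1% of its reads fell outside annotated genes, against 21.2 to 42.5% in the 11 others. The 1456 odorant and vomeronasal receptor genes, which belong to the nose, summed to 3718 CPM in that library and to 32.3 to 1528 CPM in the others.

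As one group the neuronal transcripts did not follow a single fraction. The 22 neuron-only members summed to 306 ± 28.4 CPM in eGFP/tdTomato, 379 ± 48.2 CPM in eGFP and 159 ± 18.7 CPM in tdTomato cells. Sv2b and Nsg2 were the largest parts of that sum in both eGFP-carrying fractions. Sv2b averaged 98.1, 126 and 3.91 CPM and Nsg2 70.5, 88.5 and 19.1 CPM in the same order. All 32 together summed to 813 ± 31.7 CPM in eGFP/tdTomato, 832 ± 127 CPM in eGFP and 1407 ± 245 CPM in tdTomato cells. Elavl3 made up 34.1% of the tdTomato total. Map2 alone made up 46.9% of the member total in eGFP/tdTomato cells, 35.0% in eGFP cells and 29.8% in tdTomato cells. The highest mean lay in eGFP/tdTomato cells for 5 members, in eGFP cells for 14 and in tdTomato cells for 13. The eGFP/tdTomato mean lay between the means of both other fractions for 18 members, above both for 5 and below both for 9.

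**Figure D1:**
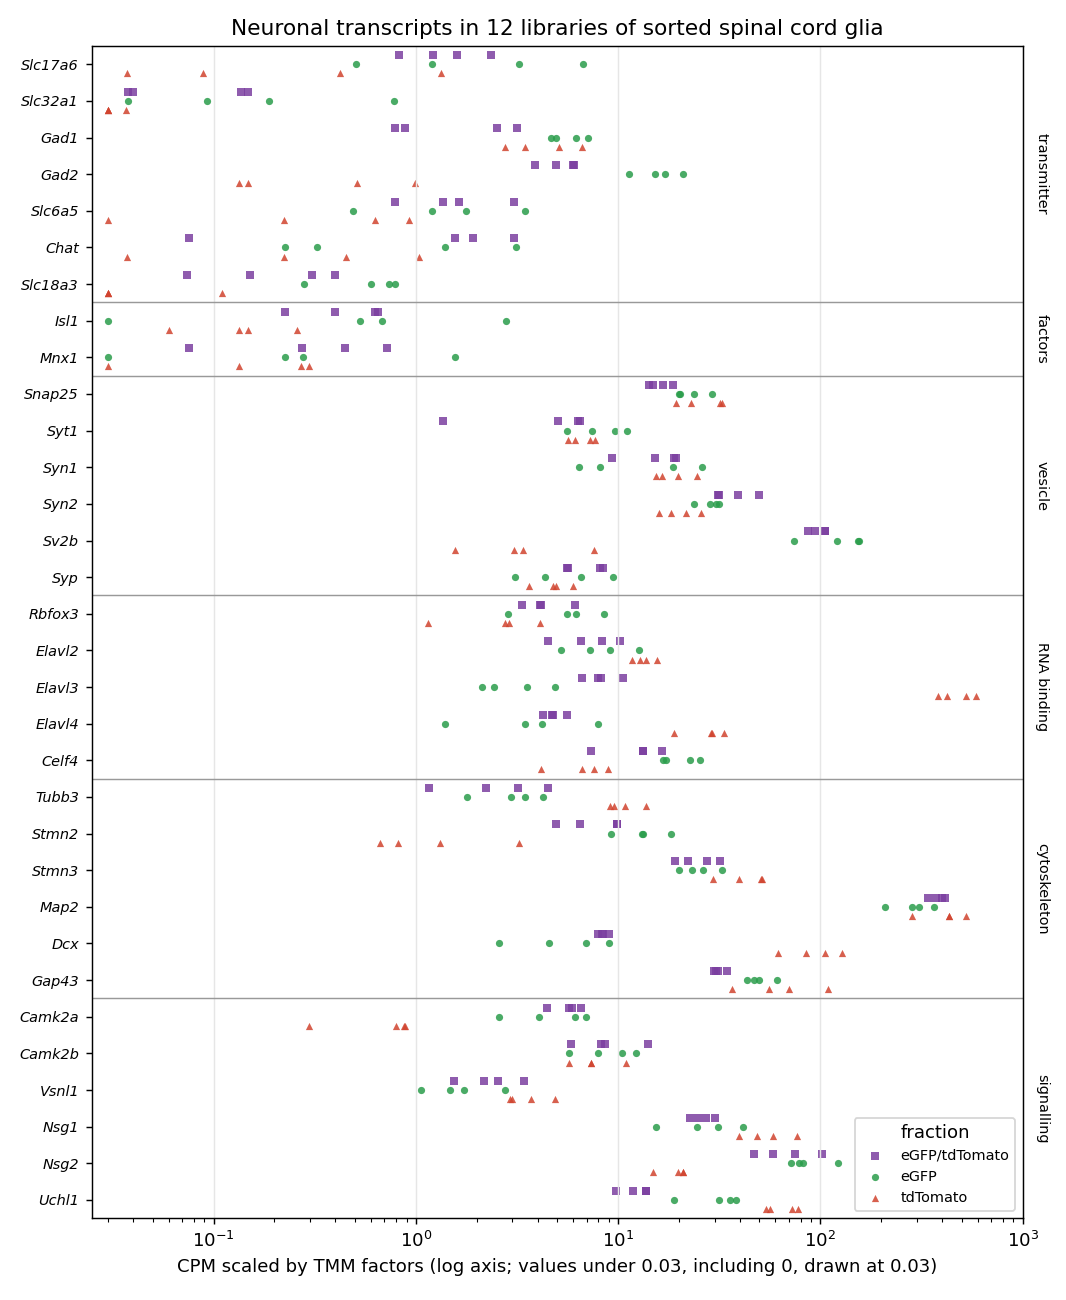
CPM of the 32 neuronal transcripts in 12 libraries on a log axis, scaled by TMM factors. Each symbol is 1 library, with eGFP/tdTomato squares above eGFP circles and tdTomato triangles, and lines part the groups by role. Elavl3 and Dcx stand far to the right in the tdTomato libraries, Sv2b, Gad2, Stmn2 and Camk2a far to the left, and the transmitter and factor genes other than Gad2 stay under 10 CPM everywhere.

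Of the members, 30 passed the filter on low counts and were tested among 29361 genes with edgeR's quasi-likelihood test, while Slc32a1 and Mnx1 did not pass. A gene was called at a Benjamini-Hochberg adjusted p under 0.05. Between eGFP/tdTomato and eGFP cells 1 member was called higher (Elavl3) and 1 lower (Uchl1), 6.67% of those tested, and 2.49% of all genes were called. Between eGFP/tdTomato and tdTomato cells 7 members were called higher and 11 lower, 60.0% of those tested, against 29.2% of all genes. Between eGFP and tdTomato cells 8 were called higher and 7 lower, 50%, against 35.2% of all genes. These comparisons share libraries, so they are not independent of each other. With the replicate number as a block, 35.1% and 41.5% of all genes were called in the 2 comparisons with tdTomato cells.

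For some members the libraries of 2 fractions did not overlap at all. In eGFP/tdTomato against eGFP cells 1 member was higher and 6 lower without overlap, with 3.75% and 4.18% of all genes. In eGFP/tdTomato against tdTomato cells 6 were higher and 9 lower, with 20.6% and 14.8% of all genes. In eGFP against tdTomato cells 7 were higher and 6 lower, with 19.6% and 14.3% of all genes.

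The classes were made with earlier results of these data known, so their counts are a description. None of the 10 shared genes was called higher than in tdTomato cells. Against tdTomato, 8 of them were called lower in eGFP/tdTomato and 6 lower in eGFP cells, while 12.4% and 14.9% of all genes were called lower. Of the 20 neuron-only genes tested, 7 were called higher and 3 lower in eGFP/tdTomato cells, and 8 higher and 1 lower in eGFP cells, where 16.8% and 20.4% of all genes were called higher. The median log2 fold change of the neuron-only genes was 1.27 for eGFP/tdTomato and 1.55 for eGFP against tdTomato, beside 0.70 and 0.79 over all genes tested and 1.65 and 1.92 over the receptor genes of the nose described below. Snap25, Elavl2 and Elavl4 were the neuron-only genes called lower. The same medians of the shared genes were -1.20 and -0.87.

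**Figure D2:**
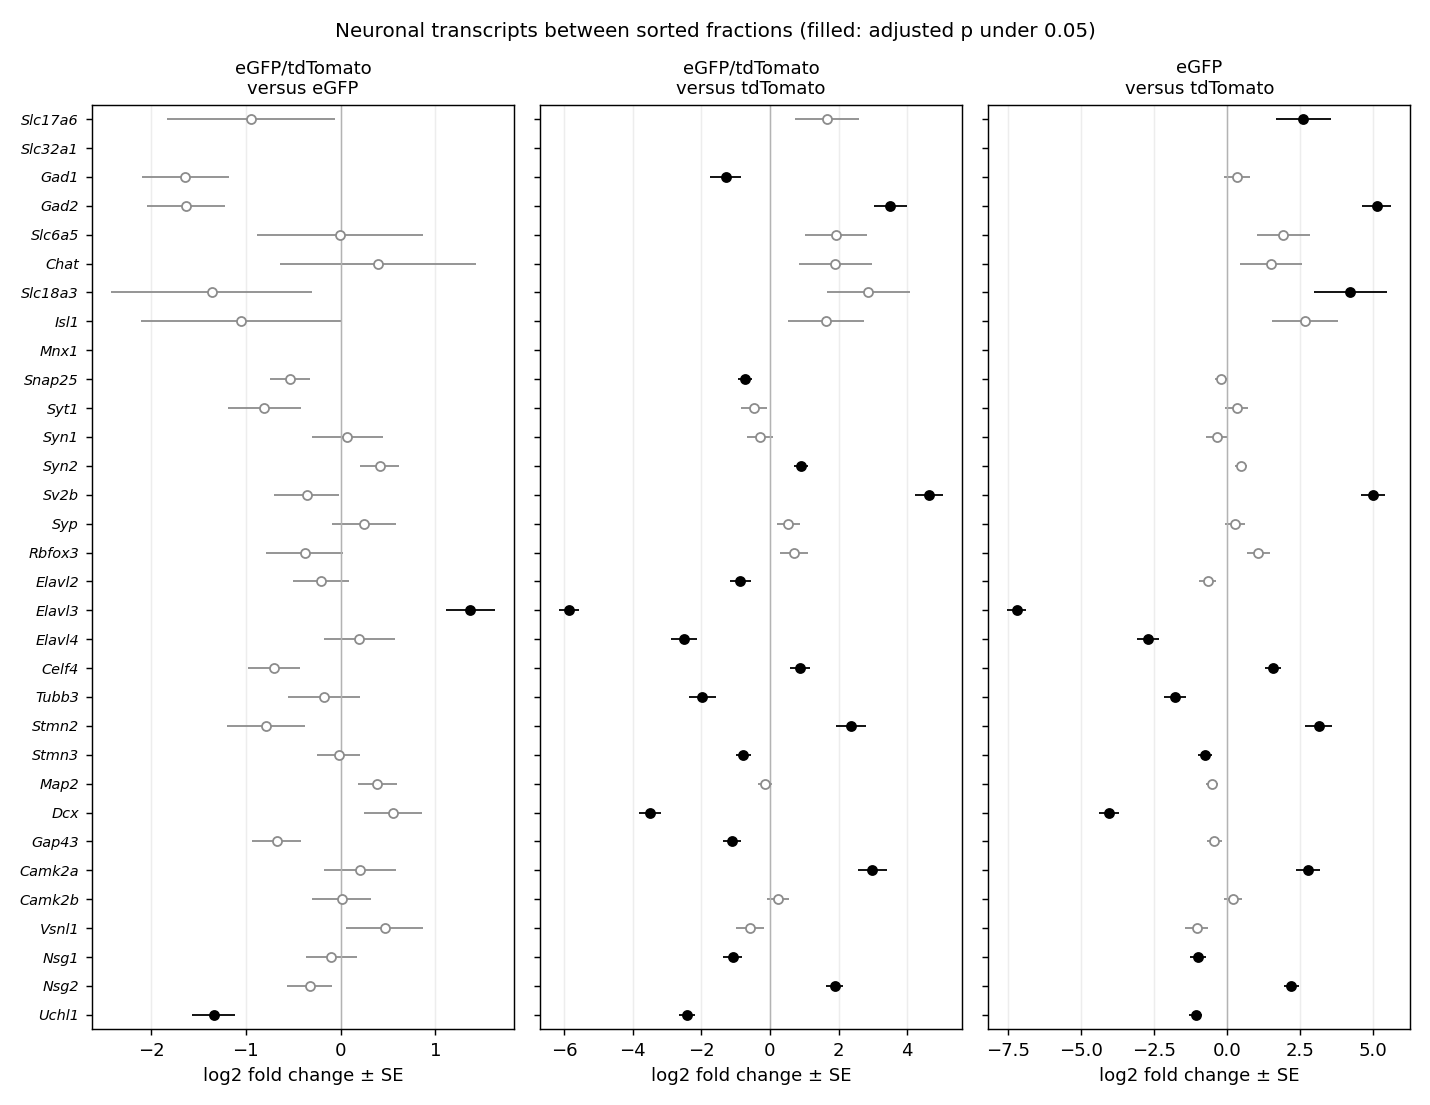
Log2 fold change with its SE for the 30 members tested, in 3 comparisons, where positive values mean higher in the fraction named first. Filled symbols passed the test, and Slc32a1 and Mnx1 have none. The first panel holds 2 filled symbols, Elavl3 on the right and Uchl1 on the left, while the other panels spread members to both sides of 0.

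Most genes that define a neuron's transmitter, Gad1 and Gad2 apart, were close to the level of genes that spinal cord does not use. For that level, the 95th percentile of the 1456 receptor genes of the nose was taken in each library, in CPM per kb of exon. It ran between 0.162 and 0.657 in eGFP/tdTomato, between 0.292 and 1.29 in eGFP and between 0.0366 and 0.326 in tdTomato libraries. Slc32a1, Slc6a5, Slc18a3 and Mnx1 stayed under it in all 12 libraries, and Slc17a6, Chat and Isl1 passed it in 1 library each. Gad2 passed it in all 8 libraries of the eGFP-carrying fractions and in no tdTomato library, and Gad1 in 7 of 12. By the same measure 17 members, from Snap25 and Syt1 to Map2 and Uchl1, stood above it in all 12. Some were close to it: Syt1 had 1.00 to 1.39 times the level in eGFP/tdTomato libraries, all under the 99th percentile. Above the 95th percentile in all 4 libraries of a fraction were 24 members in eGFP/tdTomato, 19 in eGFP and 22 in tdTomato cells. With the 99th percentile these counts were 17, 14 and 20.

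**Figure D3:**
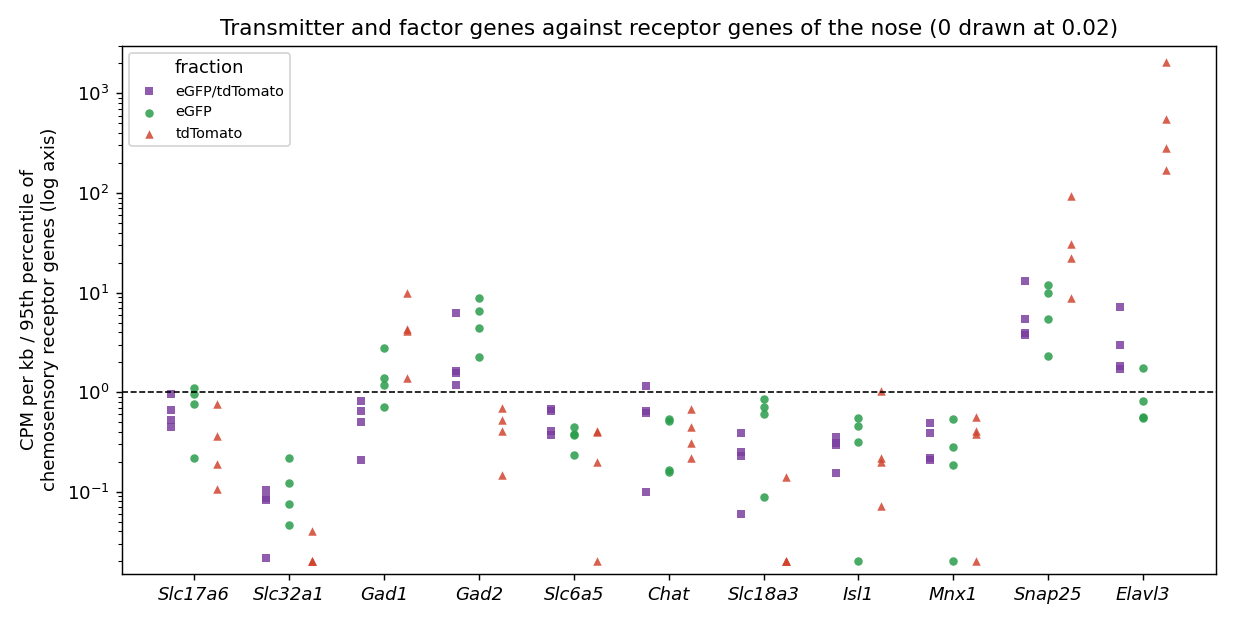
CPM per kb of the 9 transmitter and factor genes, with Snap25 and Elavl3 beside them, divided by the 95th percentile of 1456 odorant and vomeronasal receptor genes in the same library (log axis, dashed line at 1). Each symbol is 1 library, and values of 0 are drawn at 0.02. Most of the 9 genes lie under the line. Gad2 lies above it in the eGFP/tdTomato and eGFP libraries, and Gad1 in the 4 tdTomato and 3 of the 4 eGFP libraries.

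Slc17a6, the vesicular glutamate transporter of spinal excitatory neurons, had 1.60, 2.35, 0.828 and 1.22 CPM in eGFP/tdTomato, 6.69, 0.508, 1.20 and 3.24 CPM in eGFP, and 0.0891, 0.421, 0.0372 and 1.33 CPM in tdTomato libraries 1, 2, 3 and 5. Its libraries overlapped in every comparison. Slc17a6 was called higher in eGFP than in tdTomato cells (log2 fold change 2.61 ± 0.94 (SE), edgeR adjusted p = 0.0426), but without eGFP replicate 1 the fold change was 1.57 and the adjusted p 0.236, and 13 other alternative settings ended the call as well. In eGFP/tdTomato against tdTomato cells it was not called (1.66 ± 0.92, edgeR adjusted p = 0.195), but was without tdTomato replicate 5 (2.95, adjusted p = 0.0295). The receptor genes of the nose moved in the same direction: their median log2 fold change was 1.65 for eGFP/tdTomato and 1.92 for eGFP against tdTomato, over the 1041 that were tested. The part of this shift in the result was not tested.

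Slc6a5, the glycine transporter of glycinergic neurons, had 1.64, 3.07, 0.791 and 1.37 CPM in eGFP/tdTomato, 3.46, 1.20, 0.489 and 1.77 CPM in eGFP, and 0.223, 0.632, 0 and 0.922 CPM in tdTomato libraries. It was not called against tdTomato in either fraction (1.93 ± 0.91, edgeR adjusted p = 0.131, and 1.94 ± 0.91, adjusted p = 0.112). With the replicate number as a block it was called in both (2.30, adjusted p = 0.0370, and 2.19, adjusted p = 0.0417). Slc32a1, which loads GABA and glycine into vesicles, had 1 to 4 counts a library in eGFP/tdTomato cells, 1 to 14 in eGFP cells and 1 count in all 4 tdTomato libraries together. Of its exon sequence, 24.9% overlaps a gene on the opposite strand, and the counting mode is not given.

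The cholinergic genes were as low. Chat, which makes acetylcholine, had 3.07, 1.91, 0.0753 and 1.56 CPM in eGFP/tdTomato, 3.12, 0.323, 0.226 and 1.40 CPM in eGFP, and 0.223, 0.451, 0.0372 and 1.03 CPM in tdTomato libraries, and it was called in no comparison. Slc18a3, the vesicular acetylcholine transporter, had 0.307, 0.399, 0.151 and 0.0741 CPM in eGFP/tdTomato and 0.279, 0.739, 0.602 and 0.792 CPM in eGFP libraries, against 0, 0, 0 and 0.111 CPM in tdTomato libraries. It was called higher in eGFP than in tdTomato cells (edgeR adjusted p = 0.01502), a call lost without eGFP replicate 5 (adjusted p = 0.0537). The 58 counts of the eGFP libraries against 3 of the tdTomato libraries gave a ratio of 22.8 per effective count, with a 95% counting interval (exact, conditional on the sum) of 7.43 to 114. For eGFP/tdTomato, 25 counts against 3 gave 8.45 (2.58 to 43.7), and that comparison was not called (adjusted p = 0.0924). Without tdTomato replicate 5, which held all 3 counts, it was called (adjusted p = 0.0128). Slc18a3 lies within the Chat locus on chromosome 14, and no exon overlap between them was found.

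The motor neuron and interneuron factor Isl1 had 0.648, 0.399, 0.226 and 0.630 CPM in eGFP/tdTomato, 2.79, 0, 0.527 and 0.679 CPM in eGFP, and 0.134, 0.0602, 0.149 and 0.258 CPM in tdTomato libraries, and was not called. For eGFP against tdTomato its log2 fold change was 2.69 ± 1.13 (edgeR adjusted p = 0.0782). Isl1 was called higher there with DESeq2 (adjusted p = 0.0317) and without eGFP replicate 2 (edgeR adjusted p = 0.0186). The motor neuron factor Mnx1 ranged from 0.0753 to 0.718 CPM in eGFP/tdTomato, from 0 to 1.56 CPM in eGFP and from 0 to 0.295 CPM in tdTomato libraries. For 7 of the 9 transmitter and factor genes the highest of the 12 values lay in eGFP replicate 1, the library with the most receptor-gene reads.

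The enzymes of GABA synthesis differed from each other in their order over the fractions. Gad2 had 3.89, 6.02, 5.99 and 4.93 CPM in eGFP/tdTomato, 17.0, 11.3, 15.2 and 20.98 CPM in eGFP, and 0.134, 0.512, 0.149 and 0.996 CPM in tdTomato libraries. No library of one fraction reached into another. Gad2 was called higher than in tdTomato cells in eGFP/tdTomato (3.50 ± 0.48, adjusted p = 3.22e-05) and in eGFP cells (5.13 ± 0.50, adjusted p = 8.41e-07). Between eGFP/tdTomato and eGFP its log2 fold change was -1.63 ± 0.42 with an adjusted p of 0.0531, and 9 of 19 alternatives passed the threshold.

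Gad1, the other enzyme, had 0.886, 2.51, 0.791 and 3.15 CPM in eGFP/tdTomato, 7.08, 4.66, 6.17 and 4.94 CPM in eGFP, and 5.12, 6.65, 2.75 and 3.47 CPM in tdTomato libraries. It was called lower in eGFP/tdTomato than in tdTomato cells (-1.29 ± 0.45, edgeR adjusted p = 0.0421). The call was lost without eGFP/tdTomato replicate 1 (adjusted p = 0.119), eGFP replicate 2 (0.0507), tdTomato replicate 1 (0.0976) or tdTomato replicate 2 (0.142). Between eGFP/tdTomato and eGFP its log2 fold change was -1.64 ± 0.45 with an adjusted p of 0.0843, although the libraries did not overlap. The ratio of Gad1 to Gad2 CPM was 0.132 to 0.639 in eGFP/tdTomato, 0.236 to 0.416 in eGFP and 3.48 to 38.3 in tdTomato libraries. The 0.134 CPM at the low end of Gad2 in tdTomato cells lies under the receptor-gene level, as do its other 3 tdTomato values.

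The synaptic vesicle genes, all classed as neuron-only, spanned 3 patterns. Sv2b, a vesicle glycoprotein gene, was one of the most unequal members: 86.5, 105, 94.3 and 106 CPM in eGFP/tdTomato, 74.0, 120, 153 and 156 CPM in eGFP, and 3.39, 7.61, 1.56 and 3.06 CPM in tdTomato libraries. Its lowest value in either eGFP-carrying fraction was above its highest in tdTomato cells. Sv2b was called higher in eGFP/tdTomato (4.64 ± 0.41, adjusted p = 2.73e-07) and in eGFP cells (5.00 ± 0.41, adjusted p = 1.33e-07) than in tdTomato cells.

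Syn2, a synapsin that tethers vesicles, had 39.2, 31.3, 31.5 and 49.6 CPM in eGFP/tdTomato, 23.6, 30.5, 31.4 and 28.4 CPM in eGFP, and 25.6, 21.6, 15.95 and 18.3 CPM in tdTomato libraries. It was called higher in eGFP/tdTomato than in tdTomato cells (0.90 ± 0.20, edgeR adjusted p = 0.00307), with no overlap, but not without eGFP/tdTomato replicate 3 (adjusted p = 0.0570) or eGFP replicate 5 (0.0565). Snap25, a part of the membrane fusion machinery, moved the other way. It had 14.9, 16.6, 14.2 and 18.7 CPM in eGFP/tdTomato, 20.3, 29.2, 23.7 and 20.03 CPM in eGFP, and 32.1, 32.5, 23.0 and 19.3 CPM in tdTomato libraries. Snap25 was called lower in eGFP/tdTomato than in tdTomato cells (-0.73 ± 0.21, edgeR adjusted p = 0.0146), and the call was lost without tdTomato replicate 1 (0.0633) or tdTomato replicate 2 (0.0604).

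The other 3 vesicle genes were called in no comparison. Syt1, the calcium sensor of release, ranged from 1.36 to 6.51 CPM in eGFP/tdTomato, from 5.61 to 11.1 CPM in eGFP and from 5.65 to 7.71 CPM in tdTomato libraries. Syn1, the other synapsin among the members, ranged from 9.31 to 19.3 CPM, from 6.41 to 26.1 CPM and from 15.3 to 24.4 CPM in the same order. Syp, the vesicle protein synaptophysin, ranged from 5.59 to 8.45 CPM, from 3.09 to 9.47 CPM and from 3.61 to 5.99 CPM. Gm14703, a gene on the opposite strand, covers 16.8% of the exon sequence of Syp.

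Proportions among the members were compared within each library by dividing by Snap25, which was above the receptor-gene level in all 12. The Syt1 ratio overlapped between all fractions: 0.0952 to 0.436 in eGFP/tdTomato, 0.237 to 0.547 in eGFP and 0.189 to 0.399 in tdTomato libraries. The Sv2b ratio was apart, with 5.68 to 6.63 in eGFP/tdTomato and 3.65 to 7.77 in eGFP libraries, against 0.0679 to 0.234 in tdTomato libraries. Elavl3 went the other way, with 0.443 to 0.565 in eGFP/tdTomato and 0.0839 to 0.242 in eGFP libraries, against 12.9 to 22.8 in tdTomato libraries. Dcx ran from 0.427 to 0.605, from 0.0886 to 0.445 and from 3.19 to 3.92 in the same order. Stmn2 stood at 0.347 to 0.662, 0.389 to 0.655 and 0.0208 to 0.168, and Nsg2 at 3.16 to 7.13, 2.80 to 5.17 and 0.643 to 0.861. These ratios were not tested.

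**Figure D4:**
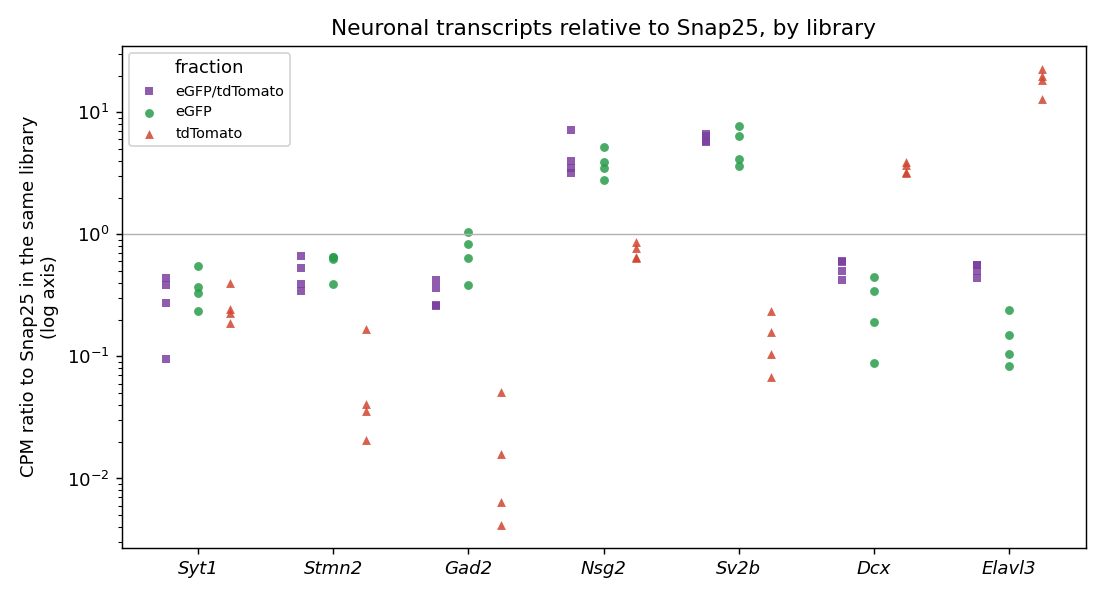
CPM of 7 neuronal transcripts divided by the CPM of Snap25 in the same library (log axis), 1 symbol per library, with eGFP/tdTomato left of eGFP and tdTomato. The 3 fractions overlap for Syt1. For Stmn2, Gad2, Nsg2 and Sv2b the tdTomato libraries lie under the others, and for Dcx and Elavl3 they lie above.

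Among the RNA-binding proteins, Elavl3, a member of the Hu family that stabilises neuronal messenger RNA, differed most. It had 6.61, 8.25, 7.95 and 10.6 CPM in eGFP/tdTomato, 4.90, 2.45, 3.54 and 2.11 CPM in eGFP, and 589, 421, 525 and 382 CPM in tdTomato libraries. All 3 fractions were apart from each other. Per kb of exon it was the most abundant of the 32 members in tdTomato cells (69.6 CPM per kb) while it ranked 16 of 32 in eGFP/tdTomato (1.21) and 25 of 32 in eGFP cells (0.472). Elavl3 was lower than in tdTomato cells in eGFP/tdTomato (log2 fold change -5.84 ± 0.30, adjusted p = 1.18e-09) and eGFP cells (-7.21 ± 0.32, adjusted p = 3.38e-10). It was higher in eGFP/tdTomato than in eGFP cells (1.37 ± 0.26, adjusted p = 0.00771), where only 0.814% of genes were called higher. With only those 2 fractions in the fit, that last call was not kept (1.26, adjusted p = 0.0772). Elavl3 stood above the receptor-gene level in 4 of 4 eGFP/tdTomato and in 1 of 4 eGFP libraries. Markers of myelinating oligodendrocytes moved with it: 10 of 16 were called higher in eGFP/tdTomato than in eGFP cells, and they summed to 1694 to 3423 CPM in eGFP/tdTomato, 477 to 1372 CPM in eGFP and 116100 to 171796 CPM in tdTomato libraries. Of 16 markers of committed oligodendrocytes 5 were called higher and 1 lower there, and of 16 progenitor markers 4 higher and 0 lower. The committed markers summed to 963 to 1444 CPM, 587 to 765 CPM and 16282 to 27136 CPM in the same order. Progenitor markers summed to 2888 to 4191 CPM, 1355 to 2810 CPM and 3148 to 4606 CPM. Their part in the result was not tested.

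Elavl4, another Hu gene, had 4.77, 5.62, 4.26 and 4.70 CPM in eGFP/tdTomato, 7.97, 3.46, 1.39 and 4.19 CPM in eGFP, and 28.8, 33.3, 29.3 and 19.0 CPM in tdTomato libraries. Although classed as neuron-only, it followed Elavl3 in direction: it was called lower than in tdTomato cells in eGFP/tdTomato (-2.51 ± 0.38, adjusted p = 9.70e-05) and in eGFP cells (-2.71 ± 0.39, adjusted p = 4.79e-05), with no overlap. Elavl2, the Hu gene also known from germ cells, had 8.35, 10.2, 6.59 and 4.52 CPM in eGFP/tdTomato, 12.7, 7.30, 5.23 and 9.09 CPM in eGFP, and 12.8, 13.8, 15.7 and 11.7 CPM in tdTomato libraries. Elavl2 was called lower in eGFP/tdTomato than in tdTomato cells (-0.86 ± 0.29, edgeR adjusted p = 0.0384). Leaving out any of 5 single libraries ended that call: replicate 1 (0.0572) or 5 (0.122) of eGFP/tdTomato, or replicate 1 (0.0645), 2 (0.0732) or 3 (0.0995) of tdTomato. Without eGFP replicate 1, Elavl2 was also called lower in eGFP than in tdTomato cells (-1.07, edgeR adjusted p = 0.00882). The same call came without eGFP/tdTomato replicate 3 (0.0217) or eGFP replicate 5 (0.0386).

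Celf4, which binds messenger RNA of excitatory neurons, went the opposite way from the Hu genes. It had 16.5, 13.2, 7.34 and 13.3 CPM in eGFP/tdTomato, 25.5, 16.7, 17.2 and 22.6 CPM in eGFP, and 7.57, 8.97, 4.16 and 6.64 CPM in tdTomato libraries. Celf4 was called higher in eGFP than in tdTomato cells (1.58 ± 0.28, edgeR adjusted p = 0.000405), with no overlap. In eGFP/tdTomato cells it was called higher as well (0.88 ± 0.28, adjusted p = 0.0276). That call ended without any 1 of 7 libraries: any eGFP/tdTomato library (0.0635 to 0.0971), eGFP replicate 1 (0.123) or 5 (0.158), or tdTomato replicate 3 (0.0867). Under another scaling, RLE, it was not called either (0.75, adjusted p = 0.0628). The same held without a filter (edgeR adjusted p = 0.0768), with at least 1 CPM in 4 libraries (0.0814) and with only the 2 fractions fitted (0.0777). With reads outside genes as a covariate the call ended too (0.59, adjusted p = 0.135), so 12 of 19 alternatives ended it.

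Rbfox3, the NeuN splicing factor that marks mature neurons, stayed low: 4.13, 4.15, 3.35 and 6.15 CPM in eGFP/tdTomato, 8.53, 2.86, 5.57 and 6.19 CPM in eGFP, and 2.76, 4.12, 1.15 and 2.88 CPM in tdTomato libraries. It was not called between eGFP and tdTomato cells (1.08 ± 0.41, edgeR adjusted p = 0.0521), though it was with the replicate block (1.12, adjusted p = 0.0411), without eGFP replicate 2 (0.0225) and without tdTomato replicate 2 (0.0337).

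Cytoskeletal genes held the most abundant members. Map2, which binds microtubules in dendrites and is also made by young oligodendrocytes, had 400, 373, 412 and 339 CPM in eGFP/tdTomato, 208, 309, 364 and 284 CPM in eGFP, and 432, 527, 433 and 285 CPM in tdTomato libraries. The fractions overlapped, and Map2 was called in no comparison. For eGFP against tdTomato its log2 fold change was -0.52 ± 0.21 (edgeR adjusted p = 0.0644). It was called lower there with the replicate block (-0.52, adjusted p = 0.0400), and without eGFP/tdTomato replicate 3 (0.0217), eGFP replicate 1 (0.0389), eGFP replicate 3 (0.0316) or tdTomato replicate 5 (0.0165).

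Dcx, a microtubule protein of migrating new neurons that oligodendrocyte progenitors also make, had 9.04, 8.33, 8.44 and 7.96 CPM in eGFP/tdTomato, 9.03, 2.59, 4.55 and 6.90 CPM in eGFP, and 105, 127, 85.4 and 61.6 CPM in tdTomato libraries. It was lower than in tdTomato cells in eGFP/tdTomato (-3.49 ± 0.33, adjusted p = 6.29e-07) and in eGFP cells (-4.04 ± 0.34, adjusted p = 1.64e-07). Tubb3, the tubulin often used to stain neurons, had 2.22, 3.19, 1.17 and 4.48 CPM in eGFP/tdTomato, 3.46, 1.80, 4.25 and 2.94 CPM in eGFP, and 9.53, 9.09, 13.8 and 10.8 CPM in tdTomato libraries. Its log2 fold changes against tdTomato were -1.97 ± 0.39 (adjusted p = 0.000956) for eGFP/tdTomato and -1.79 ± 0.38 (adjusted p = 0.00171) for eGFP. For Dcx and Tubb3 alike, each tdTomato library was above all 8 others.

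The 2 stathmins, which destabilise microtubules, moved in opposite directions. Stmn2 had 9.89, 6.46, 4.93 and 9.93 CPM in eGFP/tdTomato, 13.2, 18.2, 9.22 and 13.1 CPM in eGFP, and 0.668, 1.32, 0.818 and 3.25 CPM in tdTomato libraries, so each tdTomato library was below all others. It was higher than in tdTomato cells in eGFP/tdTomato (2.36 ± 0.44, adjusted p = 0.000651) and eGFP cells (3.14 ± 0.45, adjusted p = 5.13e-05). Stmn3 had 22.1, 19.0, 31.9 and 27.6 CPM in eGFP/tdTomato, 19.95, 23.1, 32.6 and 26.4 CPM in eGFP, and 39.7, 51.7, 51.0 and 29.6 CPM in tdTomato libraries. It was lower than in tdTomato cells in eGFP/tdTomato (-0.77 ± 0.23, adjusted p = 0.0178) and eGFP cells (-0.75 ± 0.23, adjusted p = 0.0183). The first of these Stmn3 calls was lost without eGFP/tdTomato replicate 1 (0.0609) or 2 (0.0739) or tdTomato replicate 2 (0.0693) or 3 (0.0673), and the second without eGFP replicate 2 (0.0529) or tdTomato replicate 2 (0.0652) or 3 (0.0641).

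Gap43, a growth cone protein also found in oligodendrocyte progenitors, had 34.4, 30.4, 31.3 and 29.9 CPM in eGFP/tdTomato, 46.8, 60.9, 43.2 and 49.99 CPM in eGFP, and 70.0, 109, 55.7 and 36.4 CPM in tdTomato libraries. All 4 eGFP/tdTomato libraries were under all others. Gap43 was called lower in eGFP/tdTomato than in tdTomato cells (-1.10 ± 0.26, edgeR adjusted p = 0.00403), and not called in the other comparisons. Without tdTomato replicate 5 it was also called lower in eGFP than in tdTomato cells (-0.66, edgeR adjusted p = 0.0288).

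The signalling and trafficking genes held 2 pairs of related genes. Camk2a, the alpha subunit of a calcium-dependent kinase of synapses, had 4.43, 5.70, 5.95 and 6.56 CPM in eGFP/tdTomato, 6.13, 2.59, 4.06 and 6.90 CPM in eGFP, and 0.802, 0.873, 0.297 and 0.885 CPM in tdTomato libraries, with tdTomato under all others. It was higher than in tdTomato cells in eGFP/tdTomato (2.98 ± 0.42, adjusted p = 4.52e-05) and eGFP cells (2.77 ± 0.42, adjusted p = 7.72e-05). Camk2a passed the receptor-gene level in 4 of 4 eGFP/tdTomato, 2 of 4 eGFP and 1 of 4 tdTomato libraries. The receptor genes of the nose moved the same way, with median log2 fold changes of 1.65 and 1.92. The part of that shift in the Camk2a result was not tested. Camk2b, the beta subunit, which oligodendrocytes also use, ranged from 5.86 to 14.1 CPM, from 5.73 to 12.2 CPM and from 5.72 to 10.9 CPM in eGFP/tdTomato, eGFP and tdTomato libraries, and was not called.

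Nsg2 and Nsg1 encode related proteins of neuronal endosomes. Nsg2 had 47.2, 58.4, 101 and 75.0 CPM in eGFP/tdTomato, 71.6, 81.8, 122 and 78.1 CPM in eGFP, and 20.9, 20.9, 19.8 and 14.9 CPM in tdTomato libraries, and was higher than in tdTomato cells in eGFP/tdTomato (1.88 ± 0.25, adjusted p = 2.34e-05) and in eGFP cells (2.21 ± 0.25, adjusted p = 4.42e-06). Nsg1 had 22.6, 27.2, 30.3 and 24.9 CPM in eGFP/tdTomato, 15.4, 24.7, 41.2 and 31.0 CPM in eGFP, and 48.6, 76.8, 58.3 and 39.4 CPM in tdTomato libraries. Nsg1 was lower than in tdTomato cells in eGFP/tdTomato (-1.09 ± 0.27, adjusted p = 0.00598) and eGFP cells (-0.99 ± 0.27, adjusted p = 0.00975). The neighbouring gene Stx18 overlaps 17.9% of its exon sequence on the opposite strand.

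Uchl1, an abundant ubiquitin hydrolase, was the only member called in all 3 comparisons beside Elavl3. It had 9.79, 11.8, 13.8 and 13.8 CPM in eGFP/tdTomato, 18.9, 31.6, 38.2 and 35.8 CPM in eGFP, and 72.7, 53.8, 77.5 and 56.6 CPM in tdTomato libraries, and the 3 fractions did not overlap. Uchl1 was lower in eGFP/tdTomato than in eGFP cells (-1.34 ± 0.23, adjusted p = 0.00345), where 1.67% of genes were called lower, and lower than in tdTomato cells (-2.40 ± 0.23, adjusted p = 8.64e-07). It was also lower in eGFP than in tdTomato cells (-1.06 ± 0.22, adjusted p = 0.00146). An opposite-strand gene, Uchl1os, covers 18.1% of its exon sequence. Vsnl1, a calcium sensor, ranged from 1.54 to 3.44 CPM in eGFP/tdTomato, from 1.06 to 2.77 CPM in eGFP and from 2.94 to 4.90 CPM in tdTomato libraries. It was not called between eGFP and tdTomato cells (-1.04 ± 0.40, edgeR adjusted p = 0.0569), but was with the replicate block (-1.07, adjusted p = 0.0463), without eGFP/tdTomato replicate 3 (0.0259) or without eGFP replicate 2 (0.0255).

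Against tdTomato cells, the calls made 3 gene groups. Camk2a, Celf4, Gad2, Nsg2, Stmn2 and Sv2b, all classed as neuron-only, were called higher in both eGFP-carrying fractions. Dcx, Elavl3, Elavl4, Nsg1, Stmn3, Tubb3 and Uchl1 were called lower in both, and of these Elavl4 alone was classed as neuron-only. Because the classes were made with earlier results of these data known, this split by class is only a description. Camk2b, Chat, Isl1, Map2, Rbfox3, Slc6a5, Syn1, Syp, Syt1 and Vsnl1 were called in neither. The remaining 7 tested members were called in 1 of the 2 comparisons.

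Further neuronal genes were read from lists beyond the members, apart from Dcx, a member that the list of new neurons also holds. Of 25 genes of vesicle release, 2 were called higher and 10 lower in eGFP/tdTomato than in tdTomato cells, and 4 higher and 12 lower in eGFP than in tdTomato cells. With the replicate block the 2 became 4. These counts, and those of the lists that follow, stand beside 16.8% of all genes called higher and 12.4% lower in eGFP/tdTomato, and 20.4% and 14.9% in eGFP, against tdTomato. The list medians were -0.39 and -0.89, beside 0.70 and 0.79 over all genes. Rims2, a scaffold of release sites, averaged 43.8 ± 4.47 CPM in eGFP/tdTomato, 36.0 ± 7.04 CPM in eGFP and 429 ± 65.4 CPM in tdTomato cells (SD, n = 4 each). Sv2a, the relative of Sv2b, ran against it, with 22.6 ± 6.87 CPM, 14.6 ± 6.09 CPM and 339 ± 106 CPM in the same order. Rab3a, a vesicle GTPase, averaged 20.2 ± 2.61 CPM, 19.7 ± 5.38 CPM and 153 ± 26.8 CPM. Sv2a was lower than in tdTomato cells by log2 fold changes of -3.91 ± 0.34 in eGFP/tdTomato and -4.54 ± 0.35 in eGFP cells (edgeR adjusted p = 2.33e-07 and 5.97e-08).

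Among 20 channel and receptor genes, 2 were called higher and 6 lower in eGFP/tdTomato than in tdTomato cells, and 3 higher and 8 lower in eGFP than in tdTomato cells, with list medians of -0.45 and -0.82. Without tdTomato replicate 1 the last of these counts was 5. Gabra2, a GABA receptor subunit, averaged 827 ± 73.9 CPM in eGFP/tdTomato, 842 ± 92.9 CPM in eGFP and 8.95 ± 4.28 CPM in tdTomato cells, and Scn3a, a sodium channel, 7.47 ± 3.76 CPM, 7.85 ± 3.08 CPM and 46.8 ± 13.8 CPM. Of 5 neurofilament genes, Ina was called lower and Prph higher than in tdTomato cells in both eGFP-carrying fractions. The call of Prph in eGFP/tdTomato was lost without eGFP/tdTomato replicate 2 or 5, eGFP replicate 5, or tdTomato replicate 2, 3 or 5. Ina averaged 3.11 ± 1.10 CPM in eGFP/tdTomato, 2.56 ± 1.99 CPM in eGFP and 32.3 ± 8.81 CPM in tdTomato cells.

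Neuropeptide genes were led by Npy, neuropeptide Y, at 44.1 ± 20.2 CPM in eGFP/tdTomato, 139 ± 46.1 CPM in eGFP and 0.318 ± 0.117 CPM in tdTomato cells. Of 16 tested, 2 were called lower in eGFP/tdTomato than in eGFP cells, as were 1.67% of all genes, and 4 were called higher and 1 lower in eGFP/tdTomato than in tdTomato cells. In eGFP against tdTomato cells, 7 were called higher and 1 lower. The 1 lower call became 2 with RLE scaling or without eGFP replicate 1 or 5 for eGFP/tdTomato, and 0 without tdTomato replicate 2 for eGFP. Pdyn, prodynorphin, was called lower in eGFP/tdTomato than in eGFP cells (-3.22 ± 0.47, edgeR adjusted p = 0.00112), with means of 1.17 ± 0.253 CPM and 10.96 ± 3.99 CPM. Among 12 motor neuron genes, 2 were called higher and 1 lower in eGFP/tdTomato and 5 higher and 1 lower in eGFP than in tdTomato cells, with list medians of 0.92 and 1.65. The 2 higher calls became 1 without any of the 6 libraries named for Prph, which this list also holds. Its 1 lower call was Slc5a7, the choline transporter, which averaged 2.85 ± 0.756 CPM in eGFP/tdTomato, 1.53 ± 0.973 CPM in eGFP and 58.5 ± 14.9 CPM in tdTomato cells.

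Of 19 tested transcription factors of spinal neurons, 5 were called higher and 1 lower in eGFP/tdTomato than in tdTomato cells, and 4 higher and 1 lower in eGFP than in tdTomato cells. The higher calls in eGFP/tdTomato were 1 or 2 without any 1 library of that fraction, without eGFP replicate 5 or without tdTomato replicate 1, 2 or 3, and 2 with RLE scaling. Without tdTomato replicate 5 the higher calls were 8 in eGFP/tdTomato and 11 in eGFP cells. Their medians, 1.77 and 1.73, were close to those of the receptor genes of the nose, 1.65 and 1.92. Foxp2 was lower in eGFP/tdTomato than in eGFP cells (-1.69 ± 0.22, edgeR adjusted p = 0.000487), with means of 9.01 ± 2.69 CPM and 29.1 ± 3.80 CPM. Of 15 tested genes of new neurons, 2 were called higher and 1 lower in eGFP/tdTomato than in tdTomato cells. In eGFP against tdTomato cells 4 were called higher and 2 lower. Dcx, already described as a member, was the 1 lower call in eGFP/tdTomato and 1 of the 2 in eGFP cells. Leaving out 1 library gave 0 to 2 higher and 1 to 2 lower for eGFP/tdTomato, and 3 to 4 and 1 to 2 for eGFP. Between eGFP/tdTomato and eGFP cells 2 were called, Igfbpl1 and Cd24a, both lower, beside 1.67% of all genes called lower. Only 1 of them was left without eGFP/tdTomato replicate 1, 3 or 5 or eGFP replicate 2 or 3. Cd24a averaged 22 ± 6.62 CPM in eGFP/tdTomato, 74.3 ± 22.2 CPM in eGFP and 10.3 ± 4.68 CPM in tdTomato cells. The ependymal, microglial, and mural and fibroblast marker sums shared this order. The part of these cell types in the result was not tested.

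Genes marking neurons that contact the cerebrospinal fluid gave 3 higher calls of 7 in either eGFP-carrying fraction against tdTomato, among them Sst, somatostatin, and Gata3, and 5 without tdTomato replicate 5. The list medians were 2.16 and 2.72, beside 1.65 and 1.92 for the receptor genes of the nose. The dorsal root ganglion list of 10 gave 1 higher and 1 lower call in eGFP/tdTomato, and 2 higher and 1 lower in eGFP cells, against tdTomato. Pou4f1, a sensory neuron factor in that list, was lower in both. The lists share genes, so some calls are counted again. Sst is also in the neuropeptide list, Gata3 and Pou4f1 in that of spinal neuron factors, and Prph in the ganglion list. Higher calls of the ganglion list were 0 in eGFP/tdTomato without replicate 2 or 5 of that fraction, eGFP replicate 5 or tdTomato replicate 2 or 3. They were 2 without tdTomato replicate 5. In eGFP they were 1 without eGFP replicate 1 or 5 or tdTomato replicate 2 or 3, and 4 without eGFP replicate 3. With the replicate block, the higher calls were 3 in the ganglion list for eGFP/tdTomato and 5 in the fluid-contacting list for eGFP cells.

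Rest itself did not separate the fractions. It averaged 48.3 ± 6.84 CPM in eGFP/tdTomato, 48.0 ± 6.45 CPM in eGFP and 46.8 ± 8.52 CPM in tdTomato cells, and its log2 fold changes were 0.01 ± 0.18, 0.05 ± 0.18 and 0.04 ± 0.18 in the 3 comparisons. Of 10 genes of REST's corepressor complexes, none was called higher, and 5 were called lower in eGFP/tdTomato and 4 lower in eGFP cells than in tdTomato cells. The 5 became 2 without eGFP/tdTomato replicate 2 or tdTomato replicate 3 and 1 without tdTomato replicate 1, and the 4 became 7 without eGFP/tdTomato replicate 3. Hdac1, a histone deacetylase, averaged 96.6 ± 12.7 CPM, 82.2 ± 19.7 CPM and 165 ± 30.3 CPM in eGFP/tdTomato, eGFP and tdTomato cells, and was lower than in tdTomato cells by -0.77 ± 0.20 and -1.01 ± 0.20 on the log2 scale (edgeR adjusted p = 0.00874 and 0.00115).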

How the data were processed

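RNA was sequenced on a BGISEQ-500, per the labels' protocols. The authors deposited raw read counts per Ensembl gene and library; per the submitters' processing notes the tools were STAR and HTSeq and the build GRCm38, with versions, annotation release and strand mode not given in the sources used here. The 5 closing lines that name no gene were left out of library sizes. They held the reads outside genes (21.2 to 57.1%), reads placed more than once (10.1 to 15.2%) and those shared by genes (1.79 to 4.60%). Gene names, positions and exon lengths came from GENCODE M21, which held 53360 of 53465 identifiers, and mitochondrial genes were at 0 in every library. No 2 libraries were identical.

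Counts were tested with edgeR 4.0.16 in R 4.3.3 (TMM factors, filterByExpr by fraction, robust quasi-likelihood F-test), all 12 libraries in 1 fit, fraction as the only factor, with Benjamini-Hochberg adjustment over 29361 genes. CPM are scaled by TMM factors, errors are SDs of 4 libraries, and SEs are the log2 fold change over the root of F. The test was checked on simulated counts. Intervals cover counting error only. Alternatives were RLE scaling, DESeq2 1.42.0, other filters, fewer libraries, a 2-fold minimum, the replicate block and the share of reads outside genes as a covariate.

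Deviations of libraries were correlated over 12034 genes with a mean of at least 5 CPM. Same-numbered pairs had 0.138 to 0.432 for eGFP/tdTomato with tdTomato and 0.120 to 0.339 for eGFP with tdTomato. Differently numbered pairs had -0.347 to 0.337 and -0.295 to 0.0618. Every same-numbered pair there passed 0.1, so the numbers were taken to pair libraries. That pairing entered only through the replicate block, and the main calls come from the fit without it. For eGFP/tdTomato with eGFP 3 same-numbered pairs had 0.153 to 0.611 and 1 had 0.0343. The last was under the 0.1 asked of every pair, so that comparison was not treated as paired. Its differently numbered pairs had -0.470 to 0.319.

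The members, their classes and the gene lists were chosen with earlier results of these data known. All 32 members are described. From each further list at most 4 genes per comparison could be named, those called with the largest change whose libraries did not overlap and whose higher fraction averaged 1 CPM or more; Aldh1l1, Olig2 and Rest were named as checks.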

Additional observations from a re-analysis of the deposited data

Results flagged for a closer look

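Among 96 groups of 4 libraries (32 members in 3 fractions), 3 held 1 library far from the other 3, and chance gives about 1 in 20. Slc32a1, the vesicular transporter of GABA and glycine, had 0.0369 CPM in tdTomato replicate 5, a single read, and 0 in the other tdTomato libraries. Slc18a3, the vesicular acetylcholine transporter, had 0.111 CPM in the same library and 0 in the others. Camk2a had 0.297 CPM in tdTomato replicate 3, under the 0.802 to 0.885 CPM of the other tdTomato libraries.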

How the results depend on the processing

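Each result was recomputed under up to 20 alternatives, and none reversed a called direction. Of 35 calls of members, 24 were kept under all alternatives run and 11 were lost under at least 1; of 55 member comparisons not called, 13 were called under at least 1. Between eGFP/tdTomato and eGFP cells, the 1 member called higher became 0 with only these 2 fractions fitted. The 1 member called lower became 3 with DESeq2, 3 with only the 2 fractions, 3 with the replicate block, and 2 without a filter, with at least 1 CPM in 4 libraries or with reads outside genes as a covariate; leaving out 1 library gave 1 to 2. With the block, Gad1 (-1.80, edgeR adjusted p = 0.0388) and Gad2 (-1.61, 0.0236) joined Uchl1. Over all genes there, 239 higher calls became 547 with DESeq2, 566 with the block, 479 with the covariate and 103 to 475 with 1 library left out, and 491 lower calls became 949 with DESeq2 and 323 to 656 with 1 library left out. Against tdTomato, members called lower in eGFP/tdTomato were 7 to 11 with 1 library left out, lowest without tdTomato replicate 2. All genes called lower there were 2888 to 5452 with 1 library left out, most without eGFP replicate 1, and 2393 of 3628 with a 2-fold minimum. In eGFP against tdTomato the 2-fold minimum left 2789 of 4372. With the block, beyond the calls named in the results, no call of a member against tdTomato changed. Over all genes, the median log2 fold change against tdTomato ran over the alternatives from 0.12 to 0.97 for eGFP/tdTomato, beside 0.70 (0.57 with RLE scaling), and from 0.10 to 1.07 for eGFP, beside 0.79. With the covariate, Stmn3 was called lower in neither fraction (edgeR adjusted p = 0.0515 and 0.238), and Nsg1 not in eGFP cells (0.114). Slc17a6 was then not called higher in eGFP cells (0.444), nor Celf4 in eGFP/tdTomato cells (0.135). The neuron-only sum in eGFP cells was 430 CPM without TMM factors. Genes at a few counts a library, such as Slc32a1 and Mnx1, are limited by depth.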
